A study of Mus musculus with 7 samples.

Results

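The genes of the enamel matrix proteins and of the proteases that process them were followed in labial cervical loops of adult mouse incisors, with and without an inducible deletion of Yap and Taz in keratin 14 expressing cells. The 7 genes, Ambn, Enam, Amelx, Mmp20, Klk4, Amtn and Odam, were taken by name, and every probe that carries one of these symbols was used. Of the 18138 gene symbols of the array, 5 were enamel genes, with 7 of its 25697 probes: Enam had 3 probes, and Ambn, Amelx, Mmp20 and Klk4 had 1 each. Amtn and Odam had no probe under their current or older symbols and were not analysed here.

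The labial cervical loop is the pocket of epithelium at the root end of the incisor that holds the stem cells of the enamel organ, and the tooth grows throughout life from it. Progeny of these cells move out of the loop and become ameloblasts, which first secrete a protein matrix and then harden it. Amelogenin (Amelx), ameloblastin (Ambn) and enamelin (Enam) form that matrix, the metalloprotease enamelysin (Mmp20) cleaves it during secretion, and the serine protease Klk4 degrades it during maturation. Amelotin (Amtn) and Odam belong to maturation, when they lie between the ameloblast and the enamel. YAP and TAZ are transcriptional co-activators restrained by the Hippo pathway that act mainly through TEAD factors.

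Control mice were Yap/Tazf/f, with floxed alleles of both genes, and mutant mice were K14CreER;Yap/Tazf/f, in which a tamoxifen-dependent Cre is driven by the keratin 14 promoter. Both groups were given tamoxifen at 8 weeks of age, 5 mg a day for 2 days, and the tissue was taken 48 hours after the last injection. No control carried the Cre, so an effect of Cre itself and one of the deletion cannot be told apart, and the driver is not active in mesenchyme. There were 3 control and 4 mutant samples, each on its own Illumina array, on 2 BeadChips. The first chip held control replicates 1 and 2 with mutant replicates 1 and 2, and the second held control replicate 3 with mutant replicates 3 and 4. The labels do not say whether the samples came from separate animals, so the spread behind each p-value may be technical.

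Between 13767 and 14752 probes were detected per array, meaning a detection p-value under 0.05 against the negative control beads, and a median of 31 to 38 beads was averaged per probe. The number of arrays limits the precision. Of the cervical loop epithelium markers, 13 of 14 had a probe, and all 13 were detected on at least 3 arrays, Krt14, Sox2 and Shh among them. The targeted Yap1 fell by 0.68 in log2 intensity (limma, SE 0.12, adjusted p = 0.0443), a call kept in 5 of 19 alternatives, all negative, with adjusted p-values up to 0.781, while Wwtr1, the gene of TAZ, differed by -0.15 (SE 0.14, adjusted p = 0.819). The Wwtr1 probe was dim, at 4.75 in control and 4.61 in mutant arrays, beside 7.27 for Yap1 in control. The undetected Klk4 stood at 4.19 in control, so a fall of Wwtr1 had little room to register.

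Promoter sequences are shown for Ambn, Enam and Amelx, the 3 enamel genes with a detected probe, which were all measured higher in the mutant group. Each runs from 250 bases before to 50 bases after the annotated start of the gene, in the direction of the gene, and comes from RefSeq on GRCm38.p6. Ambn is on the plus strand at chr5:88455741-88456040, Enam on the plus strand at chr5:88487725-88488024 and Amelx on the minus strand at chrX:169187160-169187459. Capitals mark matches to the letters of the CCAAT box, the TATA box and the core site of TEAD factors, each on either strand and at any position.
Ambn: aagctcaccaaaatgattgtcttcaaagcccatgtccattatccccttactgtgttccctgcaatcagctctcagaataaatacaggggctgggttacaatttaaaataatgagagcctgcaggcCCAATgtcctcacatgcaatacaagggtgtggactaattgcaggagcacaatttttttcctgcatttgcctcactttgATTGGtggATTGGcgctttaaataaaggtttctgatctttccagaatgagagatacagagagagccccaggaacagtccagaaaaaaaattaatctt
Enam: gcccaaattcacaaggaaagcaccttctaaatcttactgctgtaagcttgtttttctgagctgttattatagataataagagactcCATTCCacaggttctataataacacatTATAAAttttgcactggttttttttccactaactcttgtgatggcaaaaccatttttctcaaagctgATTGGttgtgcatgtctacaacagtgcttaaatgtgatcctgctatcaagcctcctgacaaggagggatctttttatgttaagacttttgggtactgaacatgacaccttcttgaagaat
Amelx: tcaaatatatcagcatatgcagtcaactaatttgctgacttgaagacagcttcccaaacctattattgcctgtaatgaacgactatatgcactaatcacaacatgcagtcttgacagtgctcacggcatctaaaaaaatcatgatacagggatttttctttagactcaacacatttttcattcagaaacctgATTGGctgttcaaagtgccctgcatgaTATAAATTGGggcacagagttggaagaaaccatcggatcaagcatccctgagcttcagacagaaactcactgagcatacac
The letters CATTCC, the core TEAD site, stood in 2 of the 7 enamel gene promoters, at -164 in Enam and at -77 in Klk4, against 14.7% of 32851 mouse promoter windows of the same length. CCAAT stood in 5 of the 7, all but Mmp20 and Klk4, against 37.4% of windows, with 3 copies in Ambn, 2 in Amelx and 1 in Enam. TATAAA stood in Enam at -137, in Mmp20 at -58 and in Amelx, against 13.6% of windows. In Amelx it lay 31 bases before the start, and its last base is shared with a CCAAT match on the other strand. ACCACA, the core site of RUNX factors, was found in Odam alone, against 16.8% of windows. These are matches of letters and not measured binding.

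Ambn, Enam and Amelx were measured higher in the mutant group, but no enamel gene probe passed the test over all probes. Of the 14666 probes that were detected on at least 3 arrays and tested, limma called 9 (0.0614%) at an adjusted p under 0.05, with 5 higher and 4 lower in mutant arrays, and none of the 4 tested enamel gene probes was among them. Median scaling in place of quantile normalisation gave 9 higher and 0 lower calls, with Ambn and 1 Enam probe among them. It moved the median difference of all tested probes to 0.068. The probe of Ambn, the brightest of Enam and that of Amelx were detected on all 7 arrays, and each had an unadjusted p under 0.05 with a higher mutant value, as had 4.32% of all tested probes. In whole tissue, more ameloblast-lineage cells and more RNA per cell cannot be told apart.

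Ambn encodes ameloblastin, a matrix protein to which ameloblasts adhere. Its deposited bead intensity was 122, 139 and 131 in control replicates 1 to 3 and 206, 164, 273 and 413 in mutant replicates 1 to 4. All 4 mutant arrays lay above all 3 control arrays, as did those of 3.28% of tested probes after normalisation, and the mutants differed among themselves more than the controls did. The standard error over the beads of an array was between 2.76% and 5.89% of its intensity, smaller than these steps. After background correction and quantile normalisation, Ambn measured 6.23 ± 0.24 (SD, n = 3) on the log2 scale for controls and 7.44 ± 0.78 (SD, n = 4) for mutants. With the chip as a term, the difference was 1.12 (SE 0.24, 95% interval 0.62 to 1.61, limma adjusted p = 0.160), or 2.17-fold. By unadjusted p it ranked 13 among the 14666 probes.

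Enam encodes enamelin, the largest of the matrix proteins. Its brightest probe had deposited intensities of 93.4, 101 and 98.9 in control replicates 1 to 3 and 129, 116, 152 and 188 in mutant replicates 1 to 4. Here too the groups did not overlap, after normalisation as well, where 3.28% of tested probes had all mutant above all control arrays. Mutant replicate 2 was the lowest and mutant replicate 4 the highest of the mutant arrays. The normalised log2 intensity was 5.31 ± 0.23 (SD, n = 3) for controls and 6.26 ± 0.51 (SD, n = 4) for mutants, and the difference with the chip as a term was 0.90 (SE 0.18, 95% interval 0.51 to 1.28, limma adjusted p = 0.134). That probe ranked 11 by unadjusted p.

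The second Enam probe was dimmer, at intensities of 77.1, 83.5 and 80.0 in control and 93.8, 83.5, 98.2 and 112 in mutant replicates. It was detected on 1 of 3 control arrays and on all 4 mutant arrays, so it passed the detection filter mainly through the mutant group. Mutant replicate 2 had the intensity of control replicate 2, and after normalisation it lay below it, at 4.43 against 4.71, so the groups overlapped. Its normalised difference was 0.60 (SE 0.18, 95% interval 0.21 to 0.98, limma adjusted p = 0.422). The third Enam probe was detected on 0 of 7 arrays, at intensities of 75.0 to 77.7 in control and 74.1 to 80.7 in mutant arrays, and was not tested. The 3 probes of Enam thus disagreed in whether they registered the transcript at all, and the sources used here do not give the exons they cover.

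Amelx encodes amelogenin, the main protein of the enamel matrix, and its gene lies on the X chromosome. Its deposited intensity was 308, 349 and 349 in control replicates 1 to 3 and 417, 372, 624 and 706 in mutant replicates 1 to 4. All mutant intensities were above the controls as deposited, but the share of all probes with such a separation was not computed for deposited values. The median intensity over all probes was 80.8 to 85.6 in control and 82.8 to 86.2 in mutant arrays. After normalisation mutant replicate 2, at 8.15, lay below control replicates 1 and 2, at 8.17 and 8.35. The normalised log2 intensity was 8.20 ± 0.13 (SD, n = 3) for controls and 8.74 ± 0.53 (SD, n = 4) for mutants, with a difference of 0.46 (SE 0.17, 95% interval 0.11 to 0.82, limma adjusted p = 0.486).

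The proteases were not detected on any array. The intensity of Mmp20 was 74.5, 74.1 and 79.7 in control replicates 1 to 3 and 75.3, 75.7, 80.4 and 81.9 in mutant replicates 1 to 4, with detection p-values of 0.0877 to 0.738. The higher values were those of the second chip in both genotypes. The intensity of Klk4 was 75.9, 75.4 and 76.6 in control and 78.2, 78.6, 82.0 and 81.6 in mutant replicates, with detection p-values of 0.0789 to 0.684. All 4 mutant Klk4 values lay above the controls, after normalisation as well, as did those of 2.85% of the 7970 probes that no array detected. Both probes stood within the range of the negative controls, so no fold is given for either protease.

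**Figure D1:**
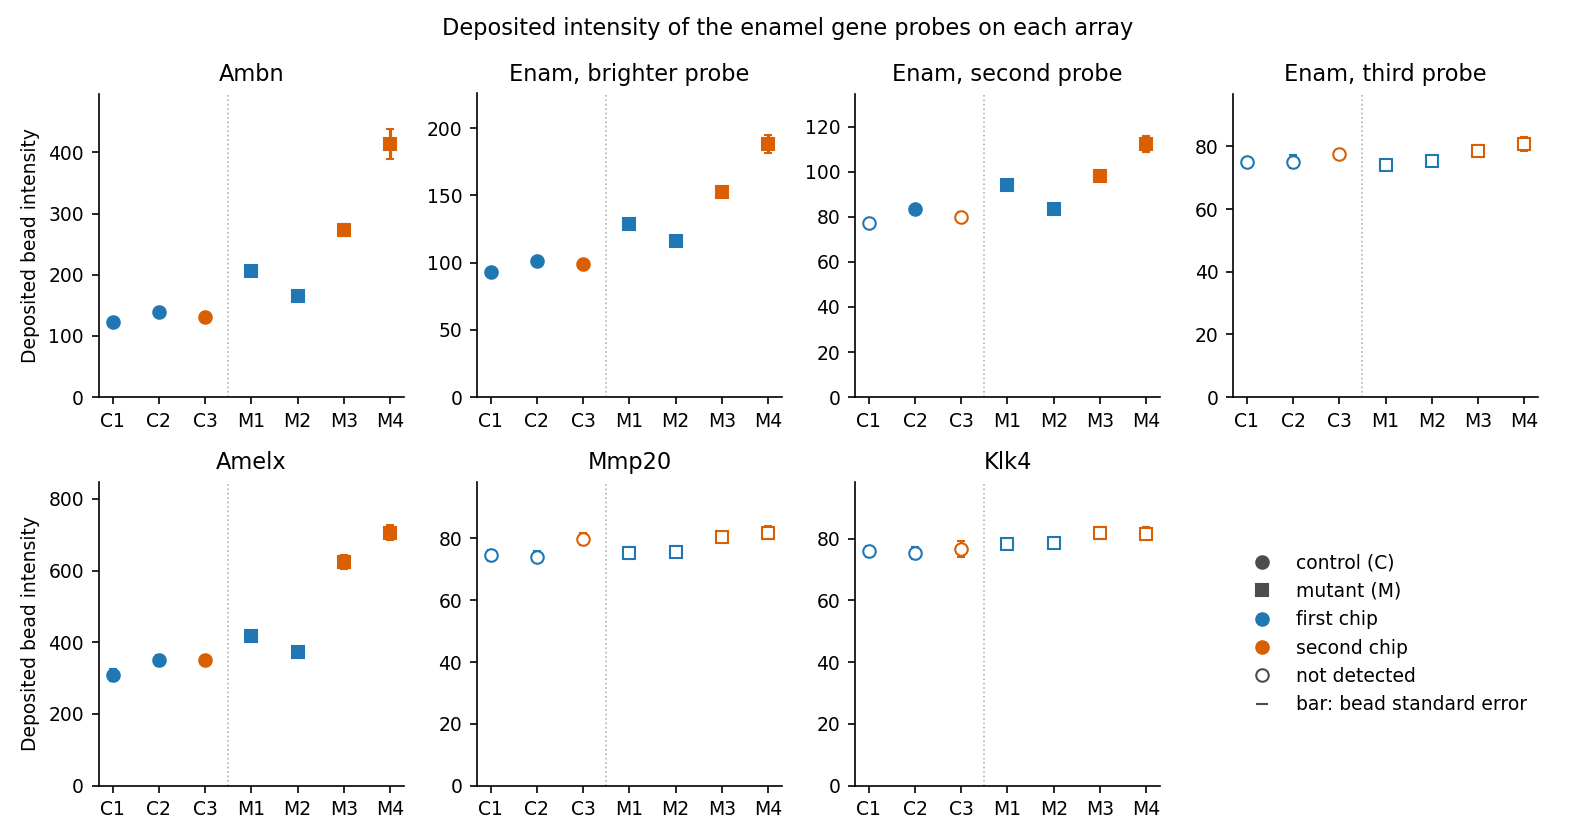
Deposited bead intensity (vertical axis, linear from 0) of the 7 enamel gene probes on control arrays C1 to C3 and mutant arrays M1 to M4, coloured by chip, with open symbols for arrays on which the probe was not detected and bars for the bead standard error. Ambn reached 413 in mutant replicate 4 against 122 to 139 in controls, while Mmp20, Klk4 and the third Enam probe were detected on no array.

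The 4 mutant arrays did not share 1 size of difference. Against the controls of the same chip, the normalised log2 value of Ambn was higher by 0.90 in mutant replicate 1, 0.23 in mutant replicate 2, 1.49 in mutant replicate 3 and 2.40 in mutant replicate 4. For the brightest Enam probe the same 4 differences were 0.78, 0.26, 1.15 and 1.77. For Amelx they were 0.23, -0.11, 0.86 and 1.27. The order of the mutant arrays was the same for these 3 probes, with replicate 2 lowest and replicate 4 highest.

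On the first chip the mean difference was 0.57 for Ambn, 0.52 for the brightest Enam probe, 0.30 for the second Enam probe and 0.061 for Amelx. On the second chip, where 1 control array was the only reference, it was 1.94, 1.46, 1.04 and 1.07. The difference between the chips was 1.38 for Ambn (SE 0.38, 95% interval 0.59 to 2.17), 0.94 for the brightest Enam probe (SE 0.32) and 1.00 for Amelx (SE 0.27, 95% interval 0.44 to 1.57). None passed limma's test of the genotype by chip term over all probes (adjusted p = 0.999 for each), where 0 of 14666 probes passed (0%) and 493 (3.36%) had an unadjusted p under 0.05 in either direction. The 3 probes detected on all 7 arrays had such a p with the larger difference on the second chip, where 1 control array sets the reference, against 1.4% of all tested probes. The second Enam probe did too, at 0.74 (SE 0.34), but it passed the detection filter mainly through the mutant group.

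**Figure D2:**
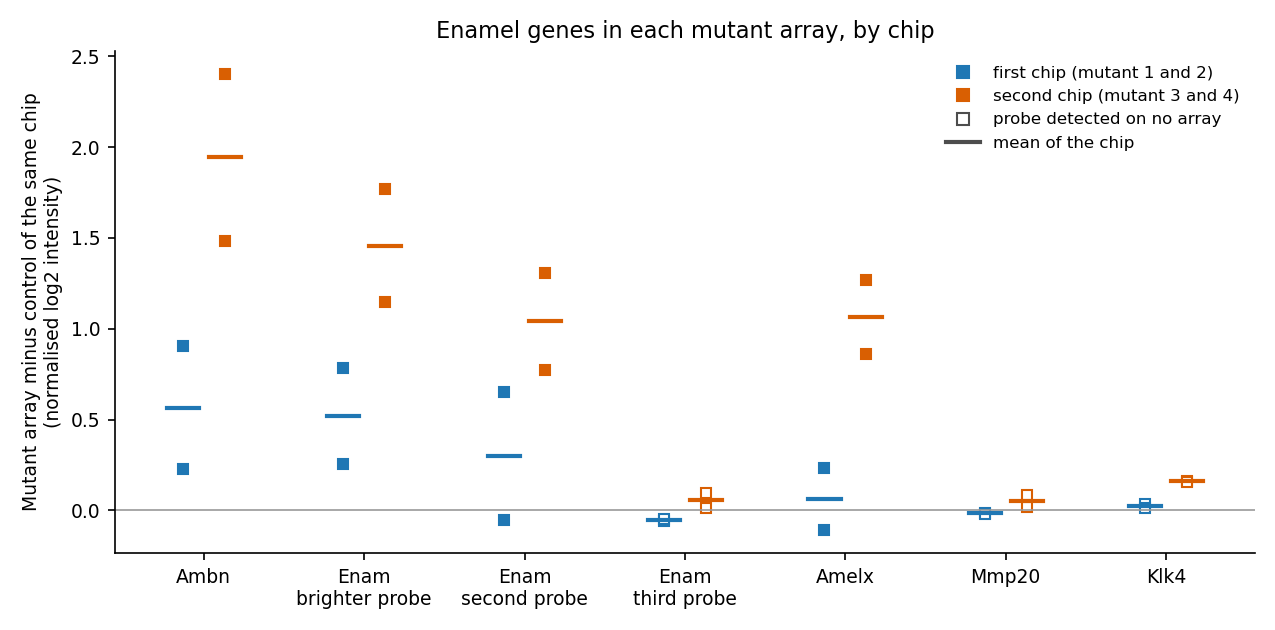
Normalised log2 intensity of each mutant array minus the mean of the control arrays on its chip (vertical axis), for the 7 enamel gene probes, with a bar for the mean of each chip and open symbols for probes detected on no array. Mutant replicates 3 and 4 on the second chip stand above replicates 1 and 2 for each tested probe, from 1.49 and 2.40 against 0.90 and 0.23 for Ambn to 0.86 and 1.27 against 0.23 and -0.11 for Amelx.

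The 3 matrix genes were also set against each other within each array. Centred on the controls, the log2 value of Ambn minus that of Amelx ran from -0.096 to 0.12 in control and from 0.39 to 1.04 in mutant arrays, without overlap. Amelx minus the brightest Enam probe ran from -0.12 to 0.069 in control and from -0.59 to -0.22 in mutant arrays, also without overlap. Ambn minus Enam overlapped, at -0.028 to 0.023 in control and -0.017 to 0.61 in mutant arrays. How often pairs of other tested genes part without overlap was not computed, so no background share stands beside these pairs. Each of the non-overlapping pairs had an exact two-sided permutation p of 0.0571, the smallest that 3 against 4 arrays allow, and 0.0857 after adjustment over the 3 pairs. Amelx thus stood lowest against its own controls in 4 of 4 mutant arrays, and no split of these arrays could have given a p below the threshold.

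Genes needed for enamel were read beside the matrix genes. Of 24 genes whose loss disturbs enamel in humans or mice, 15 were tested, with 0 called higher and 1 called lower, and a median difference of -0.012 beside 0.00025 over all tested probes. The called gene was Cftr, the chloride channel of maturing ameloblasts, which fell by 0.97 (SE 0.18, limma adjusted p = 0.0455), from 5.66 ± 0.52 (SD, n = 3) to 4.71 ± 0.24 (SD, n = 4). Cftr was lower in each of 19 alternatives, at differences of -1.23 to -0.37, but was called in 4 of them, with adjusted p-values up to 0.481, and in 1 of the 7 fits without an array. Its direction was opposite to that of Ambn on both chips, at -1.04 on the first and -0.88 on the second. Fam20a, a pseudokinase that aids phosphorylation of enamel proteins in the secretory pathway, differed by 0.25 (SE 0.12, adjusted p = 0.633), and the vitamin K carboxylase gene Ggcx by -0.26 (SE 0.12, adjusted p = 0.593). Fam20a was dim, at a mean of 4.32 in control and 4.56 in mutant arrays, and was detected on 3 arrays. The transporter genes Slc24a4 and Slc4a4, and Wdr72, Cnnm4 and Cldn19, had a probe but were detected on fewer than 3 arrays.

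Of 18 regulators of ameloblast differentiation, 15 were tested and 0 were called, with a median difference of -0.0022. Foxo1, a forkhead factor required for mouse enamel, differed by -0.45 (SE 0.12, adjusted p = 0.313), and Runx2, a factor of bone and of maturing ameloblasts, by 0.30 (SE 0.11, adjusted p = 0.491). Sp6, whose loss in mice leaves teeth without enamel, differed by -0.18 (SE 0.11). Sp6, Dspp, Col1a2 and Akp2 are named after their values were seen. Under median scaling, which moved the median of all tested probes to 0.068, the medians of the enamel-defect genes, the regulators and the cervical loop epithelium markers turned positive, at 0.019, 0.091 and 0.070.

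By gene order, Ambn and Enam are adjacent protein-coding genes on chromosome 5, and Amtn precedes them in the same cluster as Odam. The neighbours between Odam and Amtn with a probe, among them Csn3, Cabs1 and Smr3a, were detected on 0 arrays each, and so was Jchain on the far side of Enam. The next gene, Utp3, which serves ribosome assembly, differed by 0.17 (limma adjusted p = 0.762), and the 3 probes of Rufy3 differed by 0.032 to 0.11. Other mineralised tissue genes of the phosphoprotein family to which the enamel matrix genes belong, and their relatives, were a list of 7, of which 5 were tested and 0 called. Spp1, or osteopontin, differed by 0.28 (SE 0.13), Sparcl1 by -0.11 and Sparc, or osteonectin, by -0.063. Spp1 was dim, at a mean of 4.27 in control and 4.55 in mutant arrays, and was detected on 3 arrays. Dspp, the main non-collagenous gene of dentin, differed by 0.038 (SE 0.17).

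Markers of other cells in the dissected tissue were measured beside the enamel genes. Of 16 odontoblast and osteoblast markers, 12 were tested and 0 were called, 9 were positive and 3 negative, and the median difference was 0.069. Over all 14666 tested probes, 7347 were positive and 7319 negative. Col1a1, a type I collagen chain, differed by 1.26 (SE 0.26, limma adjusted p = 0.152), on both chips alike at 1.18 and 1.39, Smpd3 by 0.31 and Runx2 by 0.30. Col1a2, the other chain of that collagen, differed by 0.0059 (SE 0.12), and Akp2, the gene now named Alpl, by -0.35 (SE 0.17). Smpd3 was dim, at a mean of 4.16 in control and 4.47 in mutant arrays, beside 4.19 in control for the undetected Klk4. It was detected on 4 arrays, so it may have passed the detection filter only through the mutant group. Dmp1, Phex, Omd and Ifitm5 were not detected on enough arrays to be tested. The summed normalised intensity of the list was 721 to 804 in control and 633 to 971 in mutant arrays. Its mean log2 value, against the controls, was 0.36, -0.049, 0.21 and 0.37 in mutant replicates 1 to 4, lowest in the array in which the enamel genes were lowest. The mineralised tissue genes above and the macrophage and leukocyte markers below were lowest in that array too. The remaining lists were lowest in another mutant array.

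Of 15 macrophage and leukocyte markers, 12 were tested and 11 were positive, with a median difference of 0.16, and 1 was called. Over all 14666 tested probes, 7347 were positive. Some positive markers were dim, with C1qc detected on 3 arrays and Ptprc on 4. Lyzs, the lysozyme gene now named Lyz2, rose by 0.74 (SE 0.12, adjusted p = 0.0443; called in 8 of 19 alternatives, all positive, with adjusted p up to 0.421), and Aif1 and Cd53 each differed by 0.27. The summed intensity was 396 to 521 in control and 468 to 623 in mutant arrays, and Csf1r, Fcer1g and Mrc1 were not tested for lack of detection. Of 10 dental mesenchyme markers, 6 were tested, all positive and none called, with a median of 0.11 and summed intensities of 508 to 661 in control and 599 to 664 in mutant arrays. Lum differed by 0.50 (SE 0.18), Dcn by 0.34 and Pdgfra by 0.12, while Pdgfrb, Prrx1, Twist1 and Postn were not tested. Col3a1, also counted as positive, was detected on 4 arrays. Of 7 endothelial markers 2 were tested, Tie1 at 0.073 and Esam at 0.084, and of 6 erythroid markers 2, Hbb-b1 at -0.15 and Hba-a1 at -0.078.

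The 13 cervical loop epithelium markers had a median difference of -0.046, with 0 called. Cdh1, or E-cadherin, differed by 0.45 (SE 0.13, adjusted p = 0.375) and Shh by -0.33 (SE 0.12, adjusted p = 0.502). Their summed intensity was 7012 to 7221 in control and 6976 to 7568 in mutant arrays. The summed intensity of Ambn, Enam and Amelx was 375 to 463 in control and 428 to 1127 in mutant arrays. The part that the share of odontoblast, mesenchymal or myeloid cells has in the enamel gene values was not tested.

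**Figure D3:**
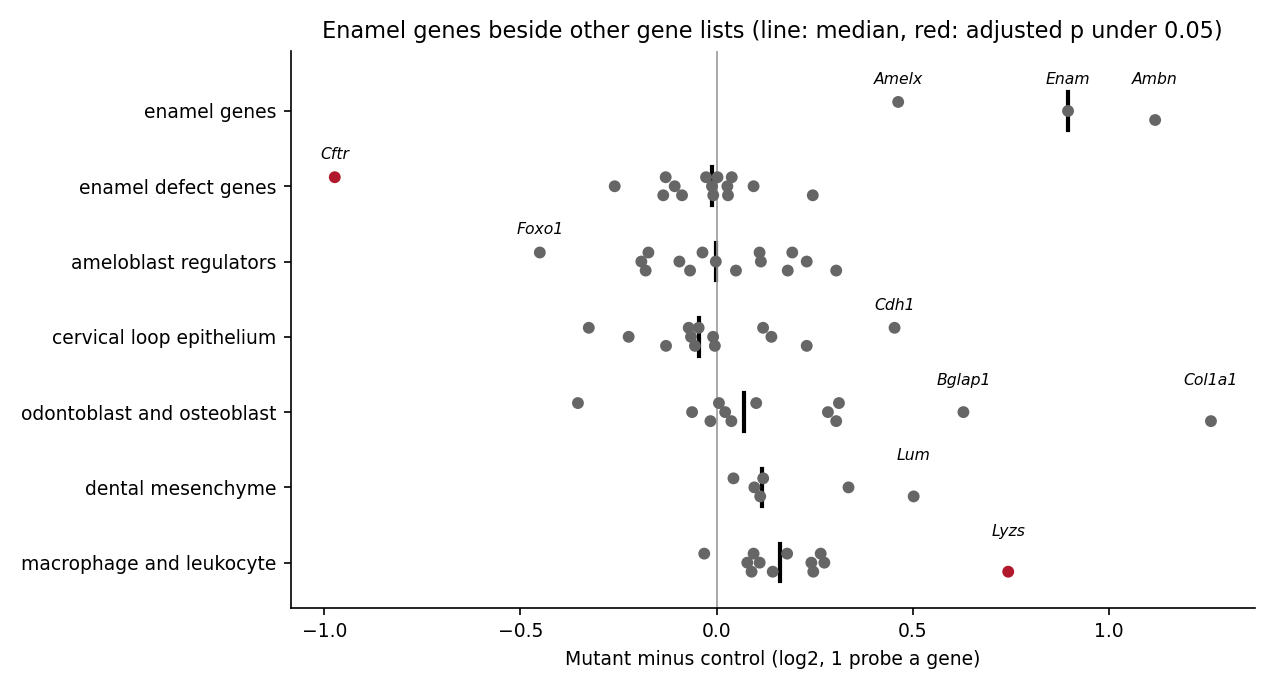
Mutant minus control on the log2 scale (horizontal axis) for the tested genes of 7 lists, 1 probe a gene, with a line for the median and red for an adjusted p under 0.05. The enamel genes lie at 0.46, 0.90 and 1.12, beside medians of the other 6 lists between -0.046 and 0.16 (the 3 negative ones turn positive under median scaling), and Cftr stands at -0.97.

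The genes nearest to Ambn in their pattern over the 7 arrays were ranked among 10481 other genes by the root mean square difference of the log2 values, each centred on its own mean. Ambn itself varied by 0.79 around its mean, and the brightest Enam probe differed from it by 0.22 and Amelx by 0.38. Among the nearest others were Bglap1 at 0.40, Chst1 at 0.44, Lyzs at 0.50 and Fermt1 at 0.52. Bglap1 encodes osteocalcin and has near-identical copies, so which copy its probe reads is uncertain. Fermt1 encodes the epithelial integrin adaptor kindlin 1, and Chst1 a sulfotransferase.

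Bglap1 parted from Ambn in mutant replicate 2. It measured 5.96, 6.24 and 5.92 in control and 6.84, 5.39, 7.45 and 7.49 in mutant replicates, so that replicate 2 lay below all controls. In that array Ambn, at 6.56, and the brightest Enam probe, at 5.66, were above all controls, by 0.066 and 0.087 over the highest of them. Amelx, at 8.15, and the second Enam probe, at 4.43, lay there within the range of their controls.

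**Figure D4:**
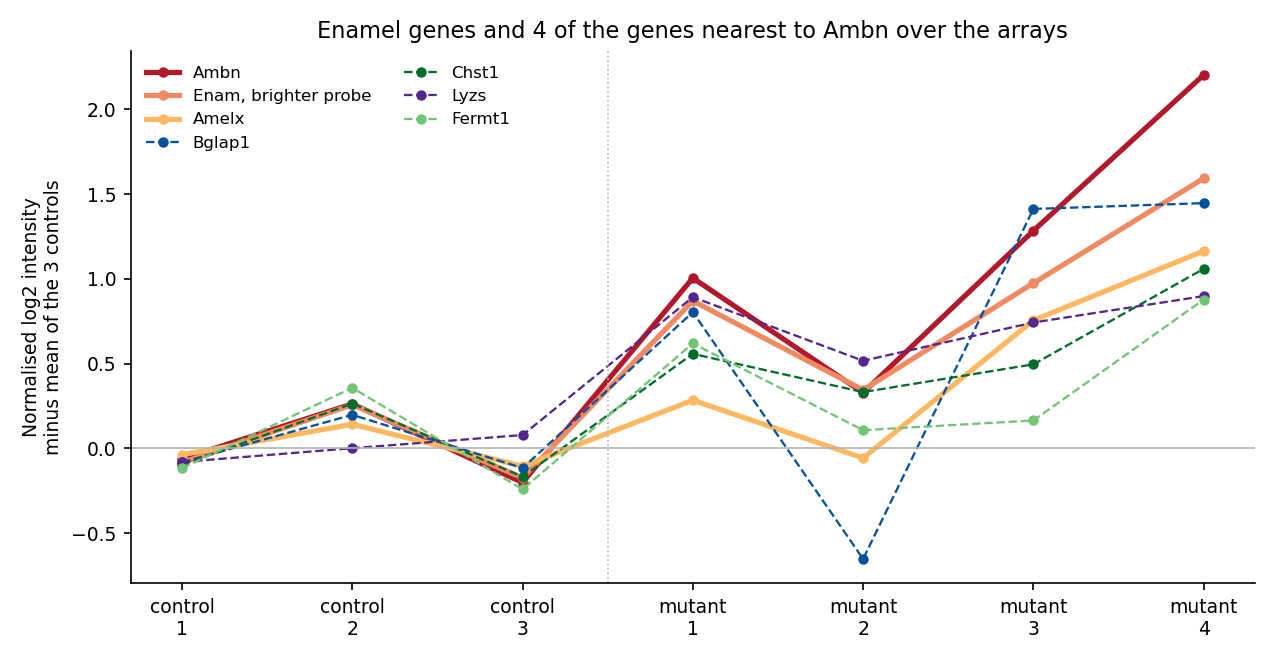
Normalised log2 intensity minus the mean of the 3 controls (vertical axis) on each array, for Ambn, the brightest Enam probe and Amelx (solid) and 4 of the genes nearest to Ambn (dashed); lines join arrays only to guide the eye. Mutant replicate 2 is lowest of the mutants for Ambn, and in it Bglap1 lies below the controls.

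Of the 7 fits that each leave out an array, 1 called enamel gene probes. Without mutant replicate 2, limma called Ambn at 1.42 (adjusted p = 0.00831) and the brightest Enam probe at 1.12 (adjusted p = 0.00891). Without control replicate 3, which leaves only the first chip to inform the difference, Ambn differed by 0.57, the brightest Enam probe by 0.52, the second by 0.30 and Amelx by 0.059, all uncalled. The standard error behind these calls also moved with the fit: for Ambn it was 0.36 when undetected probes were kept (adjusted p = 0.563) and 0.45 with an intensity trend and robust moderation (adjusted p = 0.633), beside 0.24.

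In the authors' deposited table, which lists 13 of 17174 probes with a q-value under 0.05, no enamel gene was among those 13. The authors' deposited table gives Ambn mean log2 values of 7.07 in control and 7.89 in mutant arrays, with a q-value of 0.0556. For the brightest Enam probe the authors' deposited table gives 6.65 and 7.09 with a q-value of 0.0613, and for Amelx 8.45 and 8.91 with a q-value of 0.177. In the authors' deposited table the second Enam probe has a q-value of 0.158 and Klk4 one of 0.491. The detection count given there is 16 for Ambn, above the 7 arrays here, and 3 for Klk4, which no array here detected. Which arrays that count covers was not given.

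**Figure D5:**
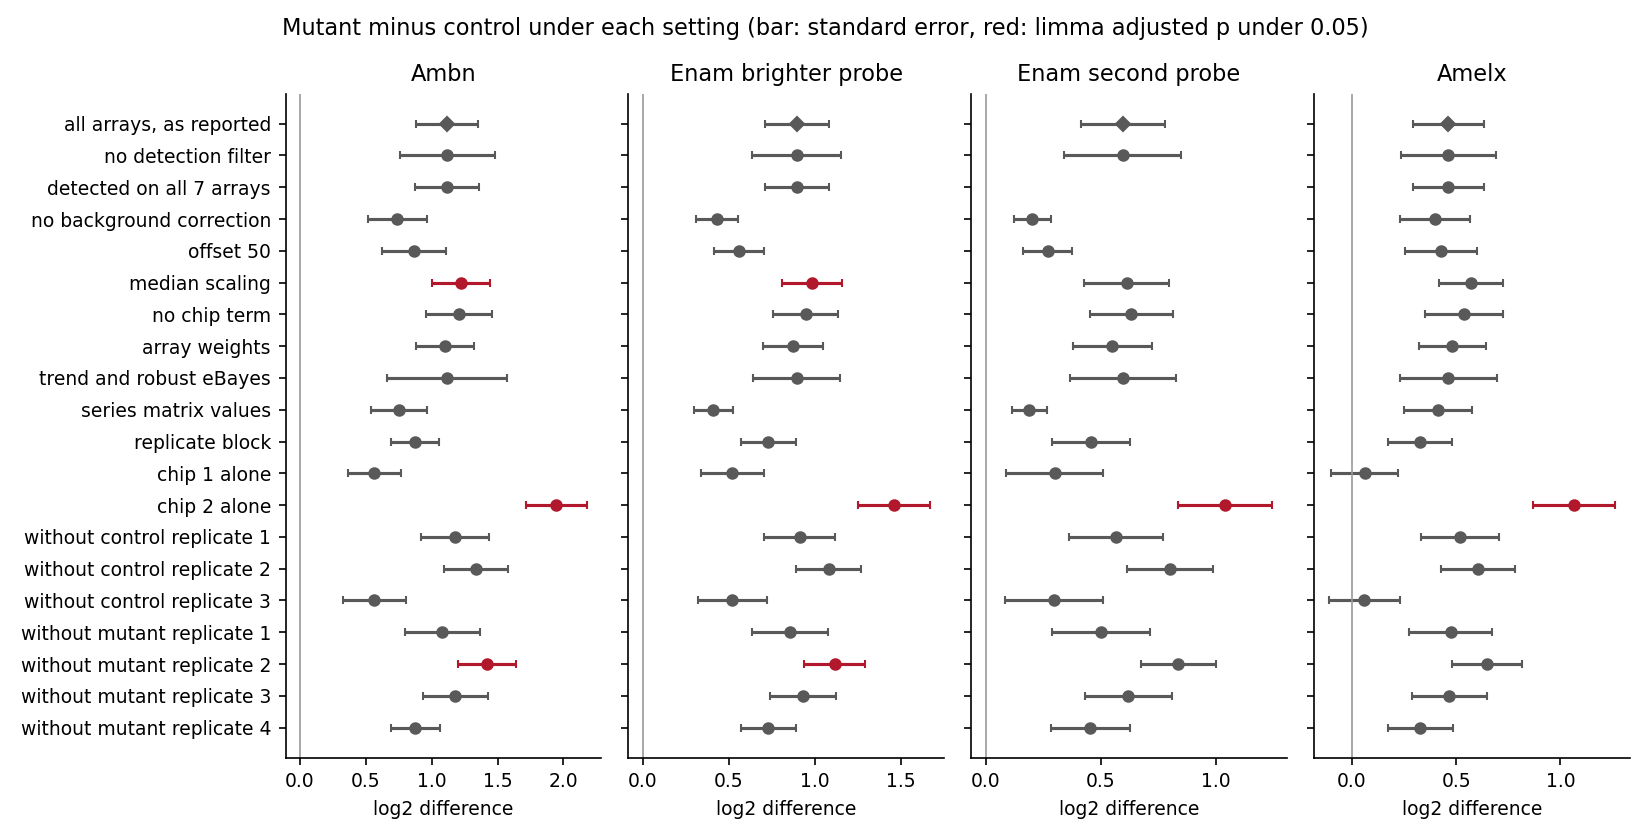
Mutant minus control on the log2 scale (horizontal axis) for the 4 tested probes under each setting of the processing and with each array left out, with bars for the standard error and red for a limma adjusted p under 0.05. Each estimate is above 0, and those of Ambn run from 0.57 to 1.94, the latter from the second chip with its 1 control array.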

How the data were processed

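Total RNA was made into biotinylated cRNA for Illumina arrays, per the labels' protocols. The intensity of each probe, the mean over its beads, was deposited without normalization, beside a detection p-value, a bead standard error and a bead count, per the file headers. The authors also deposited log2 values adjusted with ComBat for the array ID, per the file name, and a fold score with p-values and q-values. What normalization preceded ComBat was not given in the sources used here.

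Intensities were corrected by normal-exponential convolution with an offset of 16 (limma 3.58.1, R 4.3.3), negative controls being inferred from the detection p-values, then quantile normalised and taken to log2. The offset compresses differences of dim probes. Probes detected on at least 3 arrays were fitted with lmFit and eBayes on genotype and chip, with Benjamini-Hochberg adjustment over 14666 probes. The fit was run on simulated data with errors drawn independently for each array. This checked only that its mean estimates return inserted changes, and not deviations shared by the probes of an array. The chip was read from array identifiers in the labels. Pairs of genes were compared by exact permutation (SciPy 1.17.1).

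The text names all member probes, the targeted genes, the called members and the 3 of smallest p of each list, and the 5 genes nearest to Ambn, except 2 genes that are not reported here. Lists have 1 probe a gene, the one of highest mean. The members, lists and alternatives were chosen with earlier results of these data known. Symbols are those of the array, and RefSeq on GRCm38.p6 served for older names, gene order and promoters, which matched all 7 enamel genes.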

Additional observations from a re-analysis of the deposited data

How the results depend on the processing

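The differences of the 4 tested enamel gene probes were positive under every alternative that could be fitted, 19 for Ambn, Amelx and the brightest Enam probe and 18 for the second Enam probe, which is not detected on all 7 arrays. Median scaling called Ambn (1.22) and the brightest Enam probe (0.98), both at a limma adjusted p of 0.0347. It also moved the median difference of all tested probes to 0.068, and its calls were 9 higher and 0 lower. The second chip alone, with a single control array whose own deviation enters each difference, gave an adjusted p under 0.05 for Ambn (1.94), both Enam probes (1.46 and 1.04) and Amelx (1.07), which is no independent check. The first chip alone, 2 against 2 arrays, gave adjusted p-values of 0.660 to 0.965. Leaving out mutant replicate 2 called Ambn and the brightest Enam probe. With each array left out in turn, Ambn ran from 0.57 to 1.42, the Enam probes from 0.52 to 1.12 and from 0.30 to 0.84, and Amelx from 0.059 to 0.65. Without background correction Ambn was at 0.74 and the brightest Enam probe at 0.43, with an offset of 50 they were at 0.87 and 0.56, and in the series matrix values at 0.75 and 0.41. With an intensity trend and robust moderation the adjusted p was 0.633 for Ambn and 0.398 for the brightest Enam probe, and with undetected probes kept 0.563 and 0.542. The replicate number as a block gave 0.87 for Ambn (limma adjusted p = 0.116) and 0.73 for the brightest Enam probe (adjusted p = 0.136) and changed no call of an enamel gene. Mutant replicate 4 has no control of its number, so it did not inform these differences. The fit without that array gave 0.88 and 0.73. Same-numbered arrays deviated together at correlations of -0.019, 0.16 and 0.15, and differently numbered arrays at -0.14 to 0.11. Arrays of the same number also shared a chip, so these values cannot tell pairing from chip. The numbers were not taken to pair the samples, but pairing is not excluded.

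Over all probes limma called 9, and 0 without the detection filter (1914 at an unadjusted p under 0.05), 0 without background correction (1274), 0 with an offset of 50 (1282), 0 in the series matrix values (1750) and 1 on the first chip alone. Without single arrays it called 0 to 15. The cause of these changes was not tested. Signal over background limits the second Enam probe, and Mmp20, Klk4 and the third Enam probe were not above it on any array.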
